A study of Homo sapiens with 24 samples.

Results

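Aminoacyl-tRNA synthetases are the enzymes that join each amino acid to its transfer RNA, the step that supplies charged tRNA to the ribosome. Human cells hold a cytosolic set, named by the amino acid's letter and ARS (CARS for cysteine), and a mitochondrial set encoded by separate nuclear genes, most of them ending in ARS2. GARS and KARS each serve both compartments from a single gene, and 8 of the cytosolic enzymes (DARS, EPRS, IARS, KARS, LARS, MARS, QARS and RARS) sit with the scaffold proteins AIMP1 and AIMP2 in a multisynthetase complex. Several cytosolic genes are known targets of the transcription factor ATF4 in the amino acid response, the program that also holds asparagine and serine synthesis and amino acid transport.

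Genes of these enzymes were taken by symbol from the deposited count table and followed in AGS cells. They are 38 of its 23368 genes, made up of 20 cytosolic synthetases, 16 mitochondrial synthetases and the 2 scaffolds. All 38 passed the filter on low counts, as did 13947 genes in all. AGS is an established line from a human gastric adenocarcinoma, listed as WT and grown in medium with serum. The groups, of 4 biological replicates each, were a control and cells exposed for 24 h to PI103 at 0.7 µM, PD0325901 at 0.035 µM, (5Z)-7-oxozeaenol at 0.5 µM, PI103 with oxozeaenol (PI103+oxozeaenol), or PI103 with PD0325901 (PI103+PD0325901). PI103 inhibits PI3 kinases and mTOR, PD0325901 inhibits MEK, and (5Z)-7-oxozeaenol, called oxozeaenol here, inhibits TAK1. Both combinations held each agent at 50% of its single dose, that is PI103 at 0.35 µM, oxozeaenol at 0.25 µM and PD0325901 at 0.0175 µM. Whether the control was given vehicle is not stated in the labels.

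The libraries held 38057638 to 84226380 counts in genes. Levels are in counts-per-million (CPM) after TMM adjustment of the library sizes, always listed from replicate 1 to replicate 4. Differences are log2 fold changes from edgeR's quasi-likelihood test over all 24 libraries, and a gene was called when its Benjamini-Hochberg adjusted p was under 0.05. The p-values measure the spread between these samples, and in bulk RNA fewer cells of a kind and less RNA per cell cannot be told apart. Epithelial markers EPCAM, KRT8, KRT18, KRT19 and CLDN4 stood between 242 and 3587 CPM in every library. Of 4 markers of other cells, PTPRC, PECAM1 and ALB were at most 0.182 CPM. COL1A1 was not near 0, and the summed level of the 4 was 14.0 to 17.2 CPM in control, 32.2 to 34.3 with PI103, 17.5 to 21.1 with PD0325901, 8.11 to 9.77 with oxozeaenol, 8.88 to 10.9 with PI103+oxozeaenol, and 20.9 to 24.6 with PI103+PD0325901. The part of this shift in the results was not tested.

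The summed level of the cytosolic synthetases was lower than in control under every treatment, at 30.7% to 53.5% of it, while that of the mitochondrial ones was at 80.5% to 93.8%. GARS and KARS, which serve both compartments, were counted in the cytosolic sum only. A mitochondrial sum that includes them was not computed. The 20 cytosolic genes summed to 7713 ± 190 CPM (SD, n = 4) in control, with libraries between 7501 and 7901. The sum was 2808 ± 209 CPM with PI103, or 36.4% of control, 4102 ± 398 CPM (53.2%) with PD0325901 and 4126 ± 656 CPM (53.5%) with oxozeaenol. It was 2847 ± 457 CPM (36.9%) with PI103+oxozeaenol and 2365 ± 95.2 CPM (30.7%) with PI103+PD0325901, and no treated library reached the lowest control library. Within batches, taking treated against control of the same replicate number, the cytosolic sum differed by -1.64 to -1.30 on the log2 scale with PI103, by -1.08 to -0.77 with PD0325901 and by -1.28 to -0.67 with oxozeaenol. The same differences were -1.71 to -1.10 with PI103+oxozeaenol, and -1.81 to -1.66 with PI103+PD0325901.

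The 16 mitochondrial genes summed to 964 ± 31.7 CPM (SD, n = 4) in control. Their sum was 93.8% of control under PI103, 91.9% under PD0325901, 90.0% under oxozeaenol, 88.4% under PI103+oxozeaenol, and 80.5% under PI103+PD0325901. The libraries of PI103 and of PD0325901 overlapped the control libraries in this sum and the other 3 groups did not. Without TMM scaling the mitochondrial difference with PI103 was -0.02 in place of -0.09 on the log2 scale, and with PD0325901 -0.04 in place of -0.12. The cytosolic sum was 8.01 ± 0.287 times the mitochondrial sum in control. That ratio was 3.10 ± 0.116 under PI103, 4.63 ± 0.420 under PD0325901, 4.75 ± 0.629 under oxozeaenol, 3.33 ± 0.382 under PI103+oxozeaenol, and 3.05 ± 0.133 under PI103+PD0325901.

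**Figure D1:**
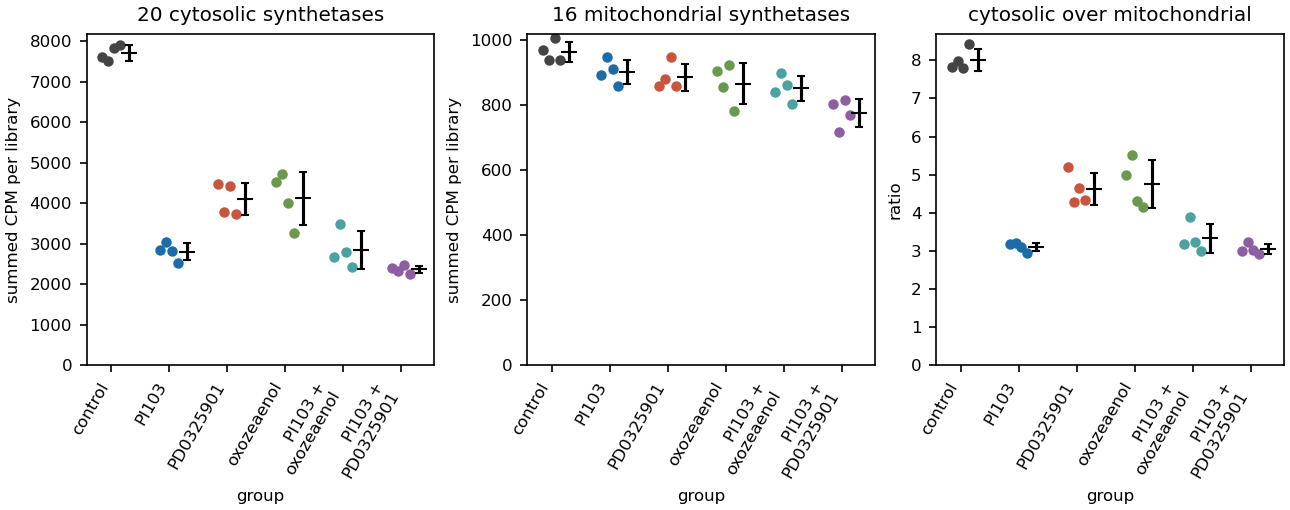
Summed CPM of the 20 cytosolic genes, of the 16 mitochondrial genes, and the ratio of these sums, in each of the 24 libraries (points) with group mean and SD (bars). Every treated library lies below the 4 control libraries in the cytosolic sum and in the ratio.

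Gene by gene, the background was large: 25.2% of all 13947 genes were called lower and 26.2% higher with PI103, 29.9% and 28.7% with PD0325901, and 26.1% and 25.7% with oxozeaenol. With PI103+oxozeaenol 27.9% were called lower and 27.7% higher, and with PI103+PD0325901 32.6% and 32.2%. Median log2 fold changes over all genes lay between -0.02 and 0.02. Against that, 16 of the 20 cytosolic genes fell with PI103, 18 with PD0325901, and 19 with oxozeaenol and with each combination. The cytosolic medians were -1.41, -0.91, -0.82, -1.37 and -1.57 in that order of treatments. Log2 fold changes under -1 were found for 12 cytosolic genes under PI103, 7 under PD0325901, 8 under oxozeaenol, 12 under PI103+oxozeaenol, and 14 under PI103+PD0325901. The mitochondrial genes under -1 numbered 0, 0, 0, 0 and 1. The shares over all genes above count calls, and the share with log2 fold changes under -1 is not given here. Among the 16 mitochondrial genes 5, 4, 5, 7 and 11 were called lower, with medians of -0.07, -0.15, -0.09, -0.13 and -0.33. With the single agents these counts are 31.2%, 25.0% and 31.2% of the class, near the shares over all genes. The 5 treatments share the 4 control libraries, so their values stand side by side and are not independent of each other.

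**Figure D2:**
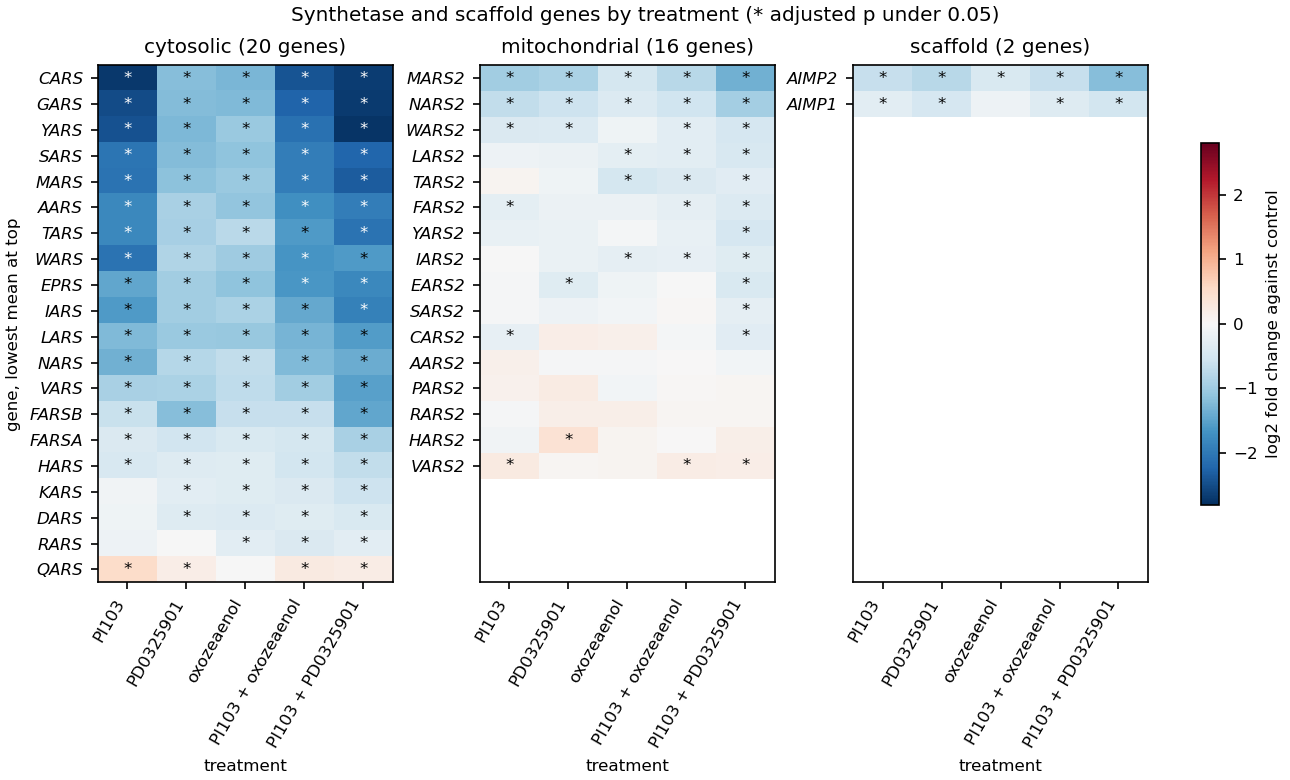
Log2 fold change against control (colour) of each of the 38 genes in the 5 treatments, with an asterisk for an adjusted p under 0.05. Of the cytosolic genes 16 fell in all 5 treatments, QARS is the cytosolic gene never called lower, and MARS2 and NARS2 are the mitochondrial genes called lower in all 5. The share of all genes called lower in all 5 together is not given here.

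Promoter letters were examined because the cytosolic genes moved together. RefSeq windows of 300 bases (250 before and 50 after the start, GRCh38.p14) were matched for 32 of the 38 members. The core of the element bound by C/EBP and ATF factors, TGATGNAA on either strand, was found in 7 of the 16 cytosolic genes with a window, in 1 of 14 mitochondrial genes and in neither scaffold. Of all 35116 windows 3.62% held it, as did 4.46% of the 27305 genes. The stretches below show each match with 11 bases on either side, 5′ to 3′ on the gene's strand, with the 8 matched bases in capitals, so that the shared letters can be seen.
AARS promoter (chr16:70289675-70289704, - strand): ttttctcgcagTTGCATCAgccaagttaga
CARS promoter (chr11:3057407-3057436, - strand): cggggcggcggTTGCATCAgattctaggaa
GARS promoter (chr7:30594834-30594863, + strand): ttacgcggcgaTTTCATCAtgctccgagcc
IARS promoter (chr9:92293692-92293721, - strand): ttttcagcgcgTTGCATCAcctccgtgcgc
MARS promoter (chr12:57488053-57488082, + strand): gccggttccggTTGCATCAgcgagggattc
NARS promoter (chr18:57621804-57621833, - strand): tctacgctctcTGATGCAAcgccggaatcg
TARS promoter (chr5:33440956-33440985, + strand): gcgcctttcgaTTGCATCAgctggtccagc
YARS2 promoter (chr12:32756076-32756105, - strand): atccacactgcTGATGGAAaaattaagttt
Of the 7 cytosolic matches 6 read TTGCATCA or its reverse complement TGATGCAA, GARS reads TTTCATCA, and the mitochondrial match in YARS2 reads TGATGGAA. The CARS, MARS and TARS matches lie at the transcription start or within 10 bases of it, from base -2 to 6 of CARS, from -4 to 4 of MARS and from 3 to 10 of TARS, counting the first transcribed base as 1 and the base before it as -1.

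The 7 cytosolic genes with the core all fell in each of the 5 treatments, with medians of -1.81, -0.97, -1.05, -1.71 and -2.07. Over all genes 25.2%, 29.9%, 26.1%, 27.9% and 32.6% were called lower in these treatments. The share of all genes called lower in all 5 together is not given here. The 9 cytosolic genes with a window and no core had medians of -0.45, -0.54, -0.43, -0.51 and -0.91. SARS, WARS and EPRS are among these 9 and nevertheless fell to log2 fold changes of -2.05, -2.06 and -1.47 with PI103. Windows were not matched for DARS, LARS, VARS and YARS. The E-box CACGTG is a palindrome that MYC and related factors bind. It was found in 1 of the 16 cytosolic genes with a window (IARS) and 3 of the 14 mitochondrial ones (CARS2, EARS2 and MARS2). Of the 2 scaffolds AIMP2 held it. The share over all windows was 7.26%, and over all genes 8.77%. A match describes these letters only.

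By the mean log2 fold change over the 5 treatments the lowest members were CARS, GARS, YARS and SARS, which charge cysteine, glycine, tyrosine and serine. CARS lies at chr11:3000922-3057613, GARS at chr7:30594681-30634033, YARS at chr1:32775237-32818153 and SARS at chr1:109213918-109238169 in GENCODE 29 on GRCh38. CARS stood at 287, 318, 285 and 354 CPM in control replicates 1 to 4, at 46.4, 57.8, 45.4 and 42.6 CPM with PI103 and at 158, 114, 150.1 and 124 CPM with PD0325901. Under oxozeaenol the 4 libraries held 142, 159, 120.1 and 92.9 CPM of CARS, those of PI103 with oxozeaenol 53.6, 82.6, 52.5 and 45.8 CPM, and those of PI103 with PD0325901 46.8, 56.5, 47.2 and 47.2 CPM. No treated library overlapped a control library. CARS fell by 2.69, 1.19, 1.28, 2.41 and 2.65 on the log2 scale in the order PI103, PD0325901, oxozeaenol, PI103+oxozeaenol and PI103+PD0325901, the PI103 change having an SE of 0.17 and an adjusted p of 9.2e-12 in edgeR's quasi-likelihood test.

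In the 4 control libraries GARS read 807, 757, 838 and 812 CPM, against 149, 160.2, 139.9 and 119 CPM with PI103 and 402, 312, 386 and 291 CPM with PD0325901. The GARS values were 391, 414, 296 and 261 CPM with oxozeaenol, 145, 245, 151 and 134 CPM with PI103 and oxozeaenol, and 129.9, 135, 124 and 115 CPM with PI103 and PD0325901. Replicate 2 of PI103+oxozeaenol was high at 245 CPM, yet well under all control libraries. The log2 fold changes of GARS were -2.50, -1.21, -1.24, -2.25 and -2.67 in the same order of treatments, and without that library the fourth was -2.49. Control libraries held 406, 432, 427 and 443 CPM of YARS, PI103 libraries 75.5, 93.2, 74.7 and 70.7 CPM, and PD0325901 libraries 209, 137, 195 and 168 CPM. For YARS the oxozeaenol libraries read 238, 232, 198 and 162 CPM, the PI103 with oxozeaenol libraries 83.6, 143, 87.2 and 84.4 CPM, and the PI103 with PD0325901 libraries 63.6, 58.5, 68.1 and 64.8 CPM. The same library was high for YARS at 143 CPM, and groups did not overlap with control. YARS changed by -2.44, -1.27, -1.04, -2.10 and -2.74, and by -2.33 in PI103+oxozeaenol without replicate 2.

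SARS stood at 471, 609, 496 and 650.3 CPM in control replicates 1 to 4, at 139, 135, 132 and 131 CPM with PI103 and at 264, 194, 257 and 241 CPM with PD0325901. Under oxozeaenol the 4 libraries held 255, 317, 251 and 198 CPM of SARS, those of PI103 with oxozeaenol 137, 178, 139 and 125 CPM, and those of PI103 with PD0325901 112, 125, 122 and 118 CPM. SARS was even between PI103 libraries and spread between control libraries, and its groups did not overlap with control. Its log2 fold changes were -2.05, -1.22, -1.13, -1.94 and -2.22, with adjusted p in edgeR's quasi-likelihood test from 2.7e-13 to 5.8e-08. The other members that fell by more than 1 on the log2 scale with PI103 were MARS (-2.06), WARS (-2.06), AARS (-1.81), TARS (-1.81), IARS (-1.59), EPRS (-1.47), NARS (-1.35) and LARS (-1.23), which charge methionine, tryptophan, alanine, threonine, isoleucine, glutamate with proline, asparagine and leucine. VARS, for valine, fell by 0.90 with PI103 and 1.53 with PI103+PD0325901. FARSA and FARSB encode the subunits of phenylalanyl-tRNA synthetase. FARSA fell by 0.41 with PI103 and 0.54 with PD0325901, and FARSB by 0.63 and 1.19.

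**Figure D3:**
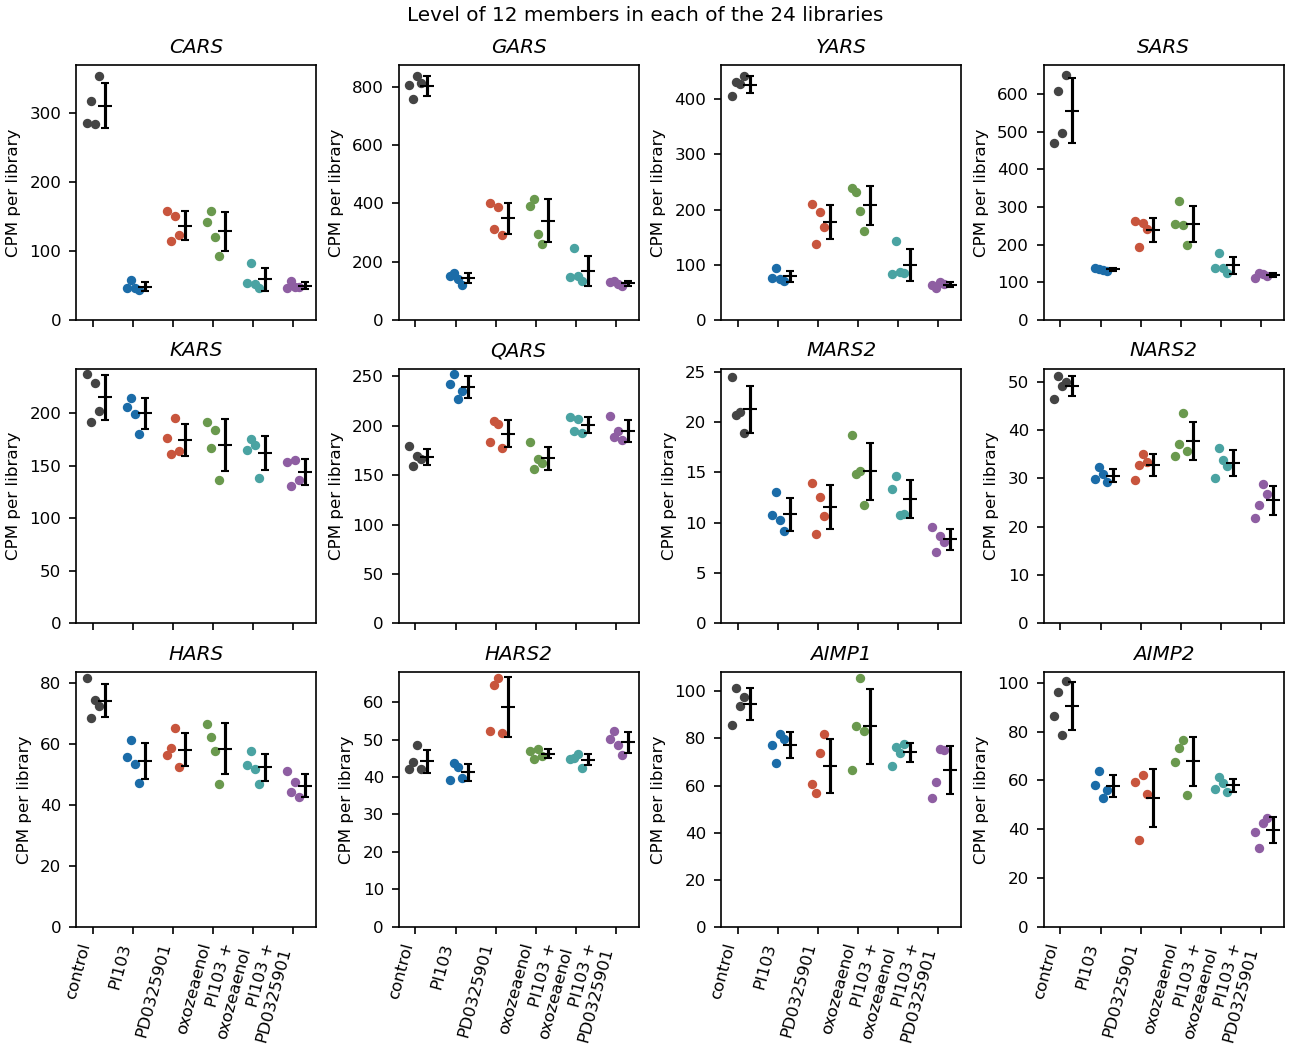
CPM of 12 members in each of the 24 libraries (points) by group, with group mean and SD. CARS, GARS, YARS and SARS are low in every treated library, QARS is highest with PI103, HARS2 is highest with PD0325901, and MARS2 and NARS2 are the mitochondrial genes that follow the cytosolic ones downward.

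KARS, RARS, DARS and QARS were not called lower in at least 1 treatment. KARS charges lysine in both compartments. In the 4 control libraries KARS read 237, 192, 229 and 202 CPM, against 206, 214, 199 and 180.0 CPM with PI103 and 176, 161, 195 and 164 CPM with PD0325901. The KARS values were 192, 167, 184 and 136 CPM with oxozeaenol, 165, 175, 169 and 139 CPM with PI103 and oxozeaenol, and 153, 130.3, 155 and 137 CPM with PI103 and PD0325901. The groups overlapped with control for the 3 single agents, with log2 fold changes of -0.11 for PI103 (not called), -0.30 for PD0325901 and -0.34 for oxozeaenol, and did not overlap for the combinations, at -0.41 and -0.58. The KARS call with PD0325901 was lost without control replicate 1, control replicate 3 or PD0325901 replicate 2, with adjusted p up to 0.077 in edgeR's quasi-likelihood test.

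Control libraries held 144, 126, 156 and 132 CPM of RARS, PI103 libraries 133, 133, 133 and 110.3 CPM, and PD0325901 libraries 123, 149, 155 and 123 CPM. For RARS the oxozeaenol libraries read 121, 122, 119 and 95.3 CPM, the PI103 with oxozeaenol libraries 111, 115, 109 and 89.3 CPM, and the PI103 with PD0325901 libraries 116, 115, 117 and 109 CPM. RARS, for arginine, overlapped control under PI103 (-0.13) and PD0325901 (-0.02) and was not called there. It fell by 0.29 with oxozeaenol, 0.40 with PI103+oxozeaenol, and 0.29 with PI103+PD0325901, and in these the libraries did not overlap with control. Without control replicate 3 the calls with oxozeaenol and with PI103+PD0325901 were lost, and the first also without oxozeaenol replicate 4 (adjusted p up to 0.096). DARS, for aspartate, was at -0.12 with PI103 (not called) and fell by 0.34 to 0.42 in the other 4.

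QARS stood at 179, 159.6, 169.5 and 167 CPM in control replicates 1 to 4, at 243, 253, 227 and 235 CPM with PI103 and at 184, 205, 202 and 178 CPM with PD0325901. Under oxozeaenol the 4 libraries held 184, 156, 166 and 162 CPM of QARS, those of PI103 with oxozeaenol 209, 195, 207 and 192 CPM, and those of PI103 with PD0325901 210.3, 189, 195 and 185 CPM. QARS charges glutamine and lies at chr3:49095932-49105135. With PI103 all 4 libraries were above all control libraries and QARS rose by 0.50 (SE 0.07) on the log2 scale (adjusted p = 2.5e-06). The rises with PI103+oxozeaenol, 0.25, and with PI103+PD0325901, 0.21, were without overlap, that with PD0325901, 0.19, overlapped control, and oxozeaenol gave -0.01 (not called). The PD0325901 call was lost without control replicate 2 or 4 or PD0325901 replicate 2 or 3 (adjusted p up to 0.105). That of PI103+PD0325901 was lost without control replicate 2 or that group's replicate 1 (up to 0.065). Both calls were also lost without the filter on low counts, and the PD0325901 call with only the groups compared. QARS was the single cytosolic member called higher in any comparison with control.

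The 8 cytosolic members of the multisynthetase complex had medians of -0.68, -0.66, -0.63, -0.85 and -1.07 over the 5 treatments. Of these 8, counts of 4, 6, 7, 7 and 7 were called lower. Over all genes the shares called lower were 25.2%, 29.9%, 26.1%, 27.9% and 32.6%. With PI103 the 8 were divided. MARS, IARS, EPRS and LARS had log2 fold changes under -1, KARS, DARS and RARS were not called, and QARS rose. The 12 outside the complex had medians of -1.81, -0.91, -0.88, -1.61 and -1.76, and all 12 fell in each of the 5. These shares over all genes are for single treatments, and the share called lower in all 5 together is not given here. The scaffolds are proteins that hold the complex together. In the 4 control libraries AIMP2 read 86.4, 96.1, 78.8 and 101 CPM, against 58.2, 63.7, 52.7 and 55.9 CPM with PI103 and 59.4, 35.5, 62.1 and 54.2 CPM with PD0325901. The AIMP2 values were 67.6, 73.2, 76.6 and 53.8 CPM with oxozeaenol, 56.4, 61.3, 59.0 and 55.3 CPM with PI103 and oxozeaenol, and 38.8, 32.2, 42.7 and 44.4 CPM with PI103 and PD0325901. No treated library overlapped control, and AIMP2 fell by 0.65, 0.78, 0.42, 0.64 and 1.19. The oxozeaenol call was lost without oxozeaenol replicate 4 (adjusted p = 0.056). Control libraries held 85.6, 101, 93.7 and 97.7 CPM of AIMP1, PI103 libraries 77.1, 69.6, 82.1 and 80.0 CPM, and PD0325901 libraries 60.7, 56.7, 74.0 and 81.8 CPM. For AIMP1 the oxozeaenol libraries read 66.7, 85.2, 106 and 83.2 CPM, the PI103 with oxozeaenol libraries 68.4, 76.4, 74.0 and 77.5 CPM, and the PI103 with PD0325901 libraries 54.9, 61.4, 75.4 and 75.1 CPM. AIMP1 fell by 0.29 with PI103, 0.47 with PD0325901, 0.35 with PI103+oxozeaenol and 0.51 with PI103+PD0325901, without overlap, and was at -0.15 with oxozeaenol, where libraries overlapped. Its PI103 call was lost in 7 of the 8 fits leaving out a control or PI103 library, the fit without control replicate 1 being the exception. Of AIMP2's exon bases 28.9% overlap the opposite-strand gene EIF2AK1, and of AIMP1's 11.6% TBCK, and the strand setting of the counting is not given.

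Among the mitochondrial synthetases MARS2 and NARS2, for methionine and asparagine, fell in all 5 treatments. MARS2 stood at 24.4, 20.7, 21.0 and 18.9 CPM in control replicates 1 to 4, at 10.7, 13.1, 10.3 and 9.14 CPM with PI103 and at 13.9, 8.89, 12.6 and 10.7 CPM with PD0325901. Under oxozeaenol the 4 libraries held 18.7, 14.9, 15.2 and 11.7 CPM of MARS2, those of PI103 with oxozeaenol 13.3, 14.6, 10.8 and 10.9 CPM, and those of PI103 with PD0325901 9.55, 7.09, 8.71 and 8.10 CPM. MARS2 libraries did not overlap control, and the log2 fold changes were -0.98, -0.88, -0.49, -0.78 and -1.34. In the 4 control libraries NARS2 read 46.4, 51.2, 49.1 and 49.9 CPM, against 29.9, 32.3, 30.9 and 29.2 CPM with PI103 and 29.7, 32.8, 35.1 and 33.3 CPM with PD0325901. The NARS2 values were 34.6, 37.1, 43.4 and 35.6 CPM with oxozeaenol, 30.0, 36.4, 33.8 and 32.6 CPM with PI103 and oxozeaenol, and 21.7, 24.5, 28.7 and 26.7 CPM with PI103 and PD0325901. NARS2 also showed no overlap and fell by 0.68, 0.59, 0.38, 0.57 and 0.95. MARS2 lies at chr2:197705369-197708387 and NARS2 at chr11:78435961-78574874.

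Control libraries held 29.6, 30.9, 29.3 and 33.3 CPM of WARS2, PI103 libraries 26.0, 22.5, 22.5 and 22.4 CPM, and PD0325901 libraries 25.1, 19.9, 24.3 and 25.2 CPM. For WARS2 the oxozeaenol libraries read 26.2, 29.0, 31.8 and 25.9 CPM, the PI103 with oxozeaenol libraries 26.8, 26.0, 24.5 and 23.1 CPM, and the PI103 with PD0325901 libraries 22.2, 19.6, 23.2 and 23.6 CPM. WARS2, for tryptophan, fell in 4 treatments without overlap, by 0.40 with PI103, 0.38 with PD0325901, 0.29 with PI103+oxozeaenol and 0.48 with PI103+PD0325901, and was at -0.13 with oxozeaenol (not called). LARS2 stood at 50.5, 43.6, 52.8 and 45.2 CPM in control replicates 1 to 4, at 41.7, 48.4, 45.3 and 40.0 CPM with PI103 and at 43.2, 43.3, 43.0 and 40.7 CPM with PD0325901. Under oxozeaenol the 4 libraries held 46.1, 39.8, 41.9 and 31.1 CPM of LARS2, those of PI103 with oxozeaenol 39.0, 41.7, 41.8 and 33.0 CPM, and those of PI103 with PD0325901 39.0, 31.5, 36.5 and 33.5 CPM. LARS2, for leucine, fell by 0.27 with oxozeaenol, where libraries overlapped control, and by 0.30 and 0.45 in the combinations, where they did not. Without oxozeaenol replicate 4 the LARS2 value with oxozeaenol was -0.17 and not called. The oxozeaenol call was also lost without control replicate 1 or 3 or oxozeaenol replicate 2 (adjusted p up to 0.15), and with only the groups compared. The PI103+oxozeaenol call was lost without control replicate 3 or that group's replicate 4 (up to 0.076).

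In the 4 control libraries AARS2 read 26.1, 25.9, 25.3 and 24.2 CPM, against 24.6, 30.5, 26.7 and 31.0 CPM with PI103 and 24.7, 25.5, 23.9 and 25.1 CPM with PD0325901. The AARS2 values were 25.4, 21.8, 25.3 and 27.5 CPM with oxozeaenol, 24.8, 24.8, 24.2 and 28.4 CPM with PI103 and oxozeaenol, and 26.6, 20.1, 25.3 and 23.7 CPM with PI103 and PD0325901. AARS2, for alanine, overlapped control in all 5 treatments and was not called, with values of 0.15, -0.03, -0.02, 0.01 and -0.08. Control libraries held 70.3, 65.7, 65.2 and 68.5 CPM of CARS2, PI103 libraries 56.8, 63.4, 53.7 and 55.3 CPM, and PD0325901 libraries 71.4, 69.2, 90.9 and 73.5 CPM. For CARS2 the oxozeaenol libraries read 77.8, 76.4, 80.2 and 63.5 CPM, the PI103 with oxozeaenol libraries 64.3, 69.3, 66.6 and 57.7 CPM, and the PI103 with PD0325901 libraries 53.9, 55.4, 55.5 and 50.9 CPM. CARS2, for cysteine, fell by 0.24 with PI103 and 0.32 with PI103+PD0325901 without overlap, and was at 0.18, 0.14 and -0.06 in the others. Its PI103 call was lost without control replicate 1 or 4 or PI103 replicate 1, 3 or 4 (adjusted p up to 0.083).

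Other mitochondrial members changed in some treatments. TARS2, for threonine, fell with oxozeaenol (-0.49) and both combinations (-0.40 and -0.31), and was at 0.08 with PI103. IARS2, for isoleucine, fell by 0.25 with oxozeaenol, 0.23 with PI103+oxozeaenol, and 0.34 with PI103+PD0325901. FARS2 fell by 0.27 with PI103 and 0.24 and 0.38 in the combinations. EARS2, YARS2 and SARS2 fell with PI103+PD0325901 by 0.43, 0.47 and 0.24, and EARS2 also by 0.34 with PD0325901. VARS2 rose by 0.25 with PI103, 0.20 with PI103+oxozeaenol, and 0.19 with PI103+PD0325901. RARS2 and PARS2 were called in none of these comparisons with control, between -0.02 and 0.17 and between -0.07 and 0.23. Of SARS2's exon bases 46.2% overlap AC011455.2 on the same strand, and of VARS2's 22.0% GTF2H4, so the counts of both are uncertain.

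Several of these calls were lost when 1 library was left out. The IARS2 calls were lost without control replicate 3 in both oxozeaenol groups, without oxozeaenol replicate 4, and without replicate 1 or 4 of PI103+oxozeaenol. FARS2 lost its call in PI103+oxozeaenol without control replicate 4 or that group's replicate 4, and EARS2 lost that with PD0325901 without control replicate 3 or PD0325901 replicate 2. SARS2 lost its call without control replicate 4 or replicate 2 of PI103+PD0325901. VARS2 lost that in PI103+oxozeaenol without control replicate 2 or 3 or the group's replicate 4, and that in PI103+PD0325901 without control replicate 2 or 3 or the group's replicate 1. Both VARS2 calls in the combinations were also lost without the filter on low counts. With only the groups compared, the VARS2 call in PI103+PD0325901 and the IARS2 call with oxozeaenol were lost. The count of mitochondrial genes called lower with oxozeaenol was 3 in place of 5 without control replicate 3 or oxozeaenol replicate 4, and that with PI103+oxozeaenol 4 in place of 7 without replicate 4 of that group.

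HARS and HARS2, the cytosolic and mitochondrial histidine enzymes, are neighbours on chromosome 5 and start on opposite strands. Between their RefSeq starts lie 84 bases. The bases from the HARS start to the HARS2 start, with both starts in capitals, are shown on the HARS2 strand because the genes share this interval.
HARS-HARS2 interval (chr5:140691370-140691455, + strand): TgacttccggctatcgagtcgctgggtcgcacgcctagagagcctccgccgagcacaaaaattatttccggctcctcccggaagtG
HARS stood at 81.5, 68.6, 74.4 and 72.3 CPM in control replicates 1 to 4, at 55.7, 61.3, 53.5 and 47.0 CPM with PI103 and at 56.2, 58.7, 65.1 and 52.4 CPM with PD0325901. Under oxozeaenol the 4 libraries held 66.4, 62.2, 57.8 and 47.0 CPM of HARS, those of PI103 with oxozeaenol 53.1, 57.5, 51.6 and 46.7 CPM, and those of PI103 with PD0325901 51.0, 44.2, 47.4 and 42.5 CPM. All 5 treatments lay below control without overlap, and HARS fell by 0.45, 0.35, 0.35, 0.51 and 0.68. In the 4 control libraries HARS2 read 42.1, 44.0, 48.6 and 42.1 CPM, against 39.1, 43.7, 42.7 and 39.7 CPM with PI103 and 52.2, 64.6, 66.5 and 51.6 CPM with PD0325901. The HARS2 values were 47.1, 44.9, 47.5 and 45.7 CPM with oxozeaenol, 44.9, 45.0, 46.1 and 42.5 CPM with PI103 and oxozeaenol, and 50.3, 52.3, 48.6 and 45.8 CPM with PI103 and PD0325901. HARS2 was high in all 4 PD0325901 libraries, which did not overlap control, and rose by 0.41 (SE 0.08) (adjusted p = 1.0e-04 in edgeR's quasi-likelihood test). In the other 4 treatments the libraries overlapped control, at -0.10, 0.07, 0.01 and 0.16. Tested directly, HARS2 was lower with PI103 than with PD0325901 (-0.51) and lower with oxozeaenol than with PD0325901 (-0.34). Exons of the genes overlap, over 5.56% of the HARS exon bases and 11.7% of those of HARS2.

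With the amino acid held fixed, 17 pairs of a cytosolic and a mitochondrial gene could be formed, with EPRS and FARS2 each standing in more than 1 pair. The log2 ratio of cytosolic to mitochondrial CPM had a lower mean than in control in 17 of 17 pairs under every treatment. All 4 treated libraries were below all control libraries in 15 pairs under PI103, 14 under PD0325901, 14 under oxozeaenol, 17 under PI103+oxozeaenol and 16 under PI103+PD0325901. How often other genes or other gene pairs of this series lie apart from control in this way is not given here, so these counts stand without a background. Median differences were -1.44, -0.81, -0.79, -1.20 and -1.36. CARS against CARS2 differed most with PI103, by -2.46. RARS with RARS2 overlapped control in 4 treatments, and MARS with MARS2 and NARS with NARS2 overlapped with PD0325901, at differences of -0.26 and -0.21. FARSA with FARS2 overlapped control with PI103 (-0.15) and with oxozeaenol (-0.28), and TARS with TARS2 with oxozeaenol (-0.29).

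**Figure D4:**
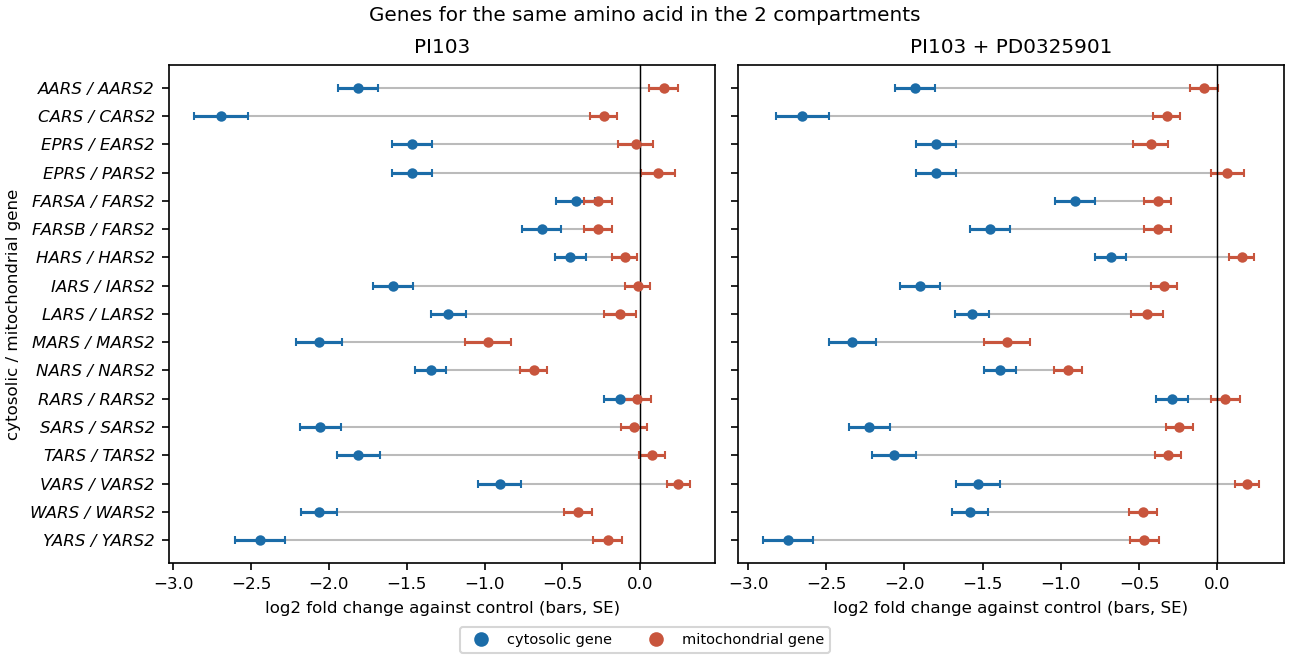
Log2 fold change against control (points, with SE) of the cytosolic (blue) and mitochondrial (red) gene for the same amino acid, for PI103 and for PI103+PD0325901. The blue point lies left of the red point in all 17 pairs of both panels, narrowly for RARS with PI103.

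Per kilobase of the principal transcript, the order of the members' levels also shifted. In control GARS (305 CPM per kb) and SARS (301) led and overlapped each other, followed by MARS (212), IARS (192) and TARS (176), whose ranges overlapped from neighbour to neighbour. IARS2, at rank 11 with 114 CPM per kb, was the highest mitochondrial gene, and PARS2 was last with 4.35. With PI103+PD0325901 the order was led by IARS2, KARS, QARS, SARS, DARS and RARS, while GARS stood at rank 8, YARS at 21 and CARS at 24.

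The single agents were compared with each other directly, without the control. PI103 against PD0325901 called 22.9% of all genes lower and 21.7% higher. Of the cytosolic genes 11 were lower with PI103 (AARS, CARS, EPRS, GARS, IARS, MARS, NARS, SARS, TARS, WARS and YARS), led by CARS at -1.51 (SE 0.16) and GARS at -1.29 (SE 0.16). Higher with PI103 were FARSB (0.55), QARS (0.32) and DARS (0.24), and the cytosolic median was -0.52. Among mitochondrial genes CARS2 (-0.41) and HARS2 were lower and EARS2 (0.31) and VARS2 (0.20) higher, a count of 4 that was 2 without PI103 replicate 2 or PD0325901 replicate 4.

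PI103 against oxozeaenol called 22.5% of all genes lower and 20.6% higher. Again 11 cytosolic genes were lower with PI103, led by CARS at -1.42 and YARS at -1.40, and QARS (0.52) and DARS (0.26) were higher. Mitochondrial genes lower with PI103 were CARS2, MARS2, NARS2 and WARS2, and TARS2 (0.57) and IARS2 (0.24) were higher. Oxozeaenol against PD0325901 called 15.1% of all genes lower and 13.4% higher, but only 3 of 20 cytosolic members, QARS (-0.20) and RARS (-0.27) lower and FARSB (0.55) higher with oxozeaenol, with a cytosolic median of -0.01. That count of 3 was 1 without replicate 2, 3 or 4 of oxozeaenol or replicate 2 or 3 of PD0325901. Mitochondrial HARS2, PARS2 and TARS2 were lower and MARS2 and WARS2 higher with oxozeaenol, a count of 5 that was 2 or 3 without PD0325901 replicate 1 or 2 or oxozeaenol replicate 2 or 3. AIMP2 was higher with oxozeaenol by 0.36.

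**Figure D5:**
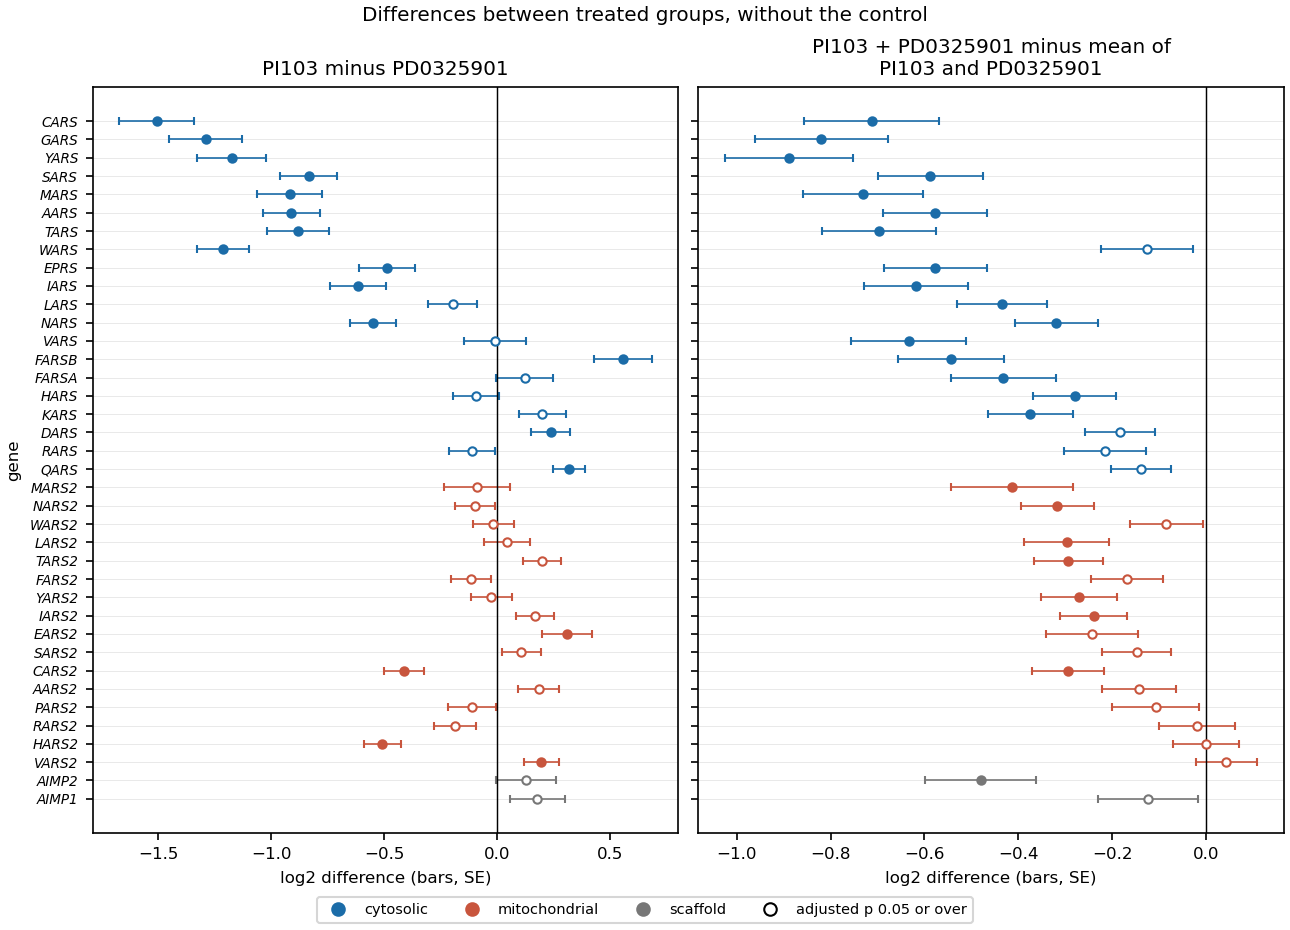
Log2 differences (points, with SE) between PI103 and PD0325901, and between their combination and the mean of the single agents, for the 38 members, with filled points for an adjusted p under 0.05. On the left CARS, WARS and GARS lie lowest and FARSB highest, and on the right YARS and GARS lie lowest and WARS is an open point near 0.

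The combinations hold each agent at 50% of its dose, so each was compared with its single agents and with the mean of their effects, which is the value for effects linear in dose. PI103+PD0325901 against that mean called 11.1% of all genes lower and 10.8% higher. Of the 20 cytosolic genes 16 were lower than the mean, with a median of -0.56, led by YARS at -0.89 (SE 0.14), GARS at -0.82 (SE 0.14) and MARS at -0.73 (SE 0.13). The 4 not called were WARS (-0.12), QARS (-0.14), DARS (-0.18) and RARS (-0.21). Mitochondrial genes lower than the mean numbered 7 (CARS2, IARS2, LARS2, MARS2, NARS2, TARS2 and YARS2), with a class median of -0.20, a count of 7 that was 3 without replicate 2 and 4 without replicate 4 of the combination. AIMP2 was lower by -0.48.

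Set against PI103 alone, given there at 0.7 and not 0.35 µM, PI103+PD0325901 called 19.9% of all genes lower and 18.8% higher. DARS, EPRS, FARSA, FARSB, KARS, LARS, QARS and VARS were lower than with PI103, FARSB most (-0.82 (SE 0.13)), and WARS was higher (0.48 (SE 0.11)). For CARS and GARS the differences were 0.04 and -0.17 and not called. In the mitochondrial class 7 genes were lower and HARS2 higher (0.25), a count of 8 that was 4 without PI103 replicate 2 and 3 without replicate 2 of the combination. Against PD0325901 alone, with 10.0% of all genes called lower and 8.06% higher, 15 cytosolic genes were lower and none higher, YARS most (-1.48). Mitochondrial genes lower than with PD0325901 were CARS2, HARS2, MARS2, NARS2 and YARS2, a count of 5 that was 2 or 3 without PD0325901 replicate 3 or replicate 2, 3 or 4 of the combination.

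PI103+oxozeaenol against the mean of its agents called 1.10% of all genes lower and 2.88% higher. No cytosolic gene was called by edgeR's quasi-likelihood test, while 11 had an unadjusted p under 0.05, all lower, and DESeq2 called MARS and SARS. With the batch number as a replicate block 5 were called lower, CARS (-0.43), EPRS (-0.33), GARS (-0.39), MARS (-0.39) and SARS (-0.36). Without replicate 2 of the combination 9 were called, GARS at -0.62, CARS at -0.63 and YARS at -0.59 among them, and without oxozeaenol replicate 4 there were 4. The cytosolic median was -0.20 in the main fit. Shares over all genes given for this combination belong to the main fit at adjusted p under 0.05. Those at the unadjusted threshold and in the other fits are not given here, so the member counts there stand without a background. No mitochondrial gene was called by edgeR or DESeq2, and 1 had an unadjusted p under 0.05.

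Against PI103 alone this combination called 8.92% of all genes lower and 9.39% higher. KARS (-0.30), QARS (-0.25) and mitochondrial TARS2 (-0.48) were lower and WARS (0.42) higher, and the replicate block added DARS, RARS and IARS2, all lower. The cytosolic count of 3 was 1 without PI103 replicate 2 or replicate 4 of the combination. Against oxozeaenol alone, with 7.28% of all genes called lower and 7.59% higher, 11 cytosolic genes were lower, CARS most (-1.13), and QARS was higher (0.26). No mitochondrial gene was called by edgeR or DESeq2 there, 2 had an unadjusted p under 0.05, and 1 was called without oxozeaenol replicate 4.

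Genes of related processes were read beside the members and beside the shares of all genes called lower, 25.2%, 29.9%, 26.1%, 27.9% and 32.6% over the 5 treatments. Of 22 listed amino acid response genes 21 were tested and all 21 fell in all 5 treatments, with medians of -3.26, -1.70, -1.49, -3.03 and -3.31. ATF4 itself, whose control level was 791 ± 62.2 CPM (SD, n = 4), fell by 1.19, 0.69, 0.46, 0.99 and 1.46. TRIB3, a pseudokinase induced by ATF4 and the lowest of that list by mean, stood at 31.1 ± 8.50 CPM in control, 1.46 ± 1.08 with PD0325901, 1.01 ± 1.14 with oxozeaenol, and at most 0.284 CPM in every library given PI103. The part of ATF4 in the change of the synthetases was not tested.

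The 11 charging accessories tested, genes that edit, modify or complete charged tRNA, were less uniform: 6, 7, 4, 4 and 8 fell and 2, 0, 0, 1 and 1 rose over the treatments. The counts that fell are 54.5%, 63.6%, 36.4%, 36.4% and 72.7% of the list, nearest to the share over all genes with oxozeaenol and PI103+oxozeaenol. TARSL2, a further threonine enzyme, rose from 7.95 ± 1.33 CPM in control to 15.5 ± 0.698 with PI103 and 16.2 ± 1.57 with PI103+PD0325901, log2 fold changes of 0.96 and 1.03, while TARS fell by 1.81 and 2.07. SEPSECS, which makes selenocysteine on its tRNA, fell by 1.34 with oxozeaenol. EEF1E1, a further protein of the multisynthetase complex, fell by 0.81 with PI103 and 0.90 with PD0325901 and was at 0.09 with oxozeaenol.

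Of 86 genes of mitochondrial translation 60, 50, 29, 56 and 72 fell and 1, 2, 9, 2 and 2 rose, with medians of -0.44, -0.34, -0.11, -0.39 and -0.59. Those that fell are 69.8%, 58.1%, 33.7%, 65.1% and 83.7% of the list, the oxozeaenol count being near the share over all genes. The ribosomal protein gene MRPL2 was lowest by mean, at -0.77 with PI103, and the release factor gene MTRF1 highest, at 0.36. RNA polymerase III makes tRNA, and of 21 genes of its subunits and factors 12, 14, 11, 10 and 16 fell, or 57.1%, 66.7%, 52.4%, 47.6% and 76.2%, and 3, 1, 1, 2 and 2 rose. POLR3G, a subunit, fell by 1.64 with PI103 and 2.21 with PI103+PD0325901, and BRF1, an initiation factor, rose by 0.31 and 0.42.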

How the data were processed

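The measurements are unnormalized read counts of 24 stranded mRNA libraries, listed by gene symbol as the authors deposited them (library kit per the labels' protocols). The submitters' processing notes name GRCh38, and the aligner, the counter and the annotation are not given in the sources used here. The table's 5 tallies of unassigned reads were left out. Depth was 38057638 to 84226380 counts in genes per library.

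Groups came from the sample titles. The filter filterByExpr left 13947 genes. After TMM scaling, edgeR 4.0.16 (R 4.3.3) estimated dispersions and fitted quasi-likelihood models with its robust options, using the group as the only term and every library. There were 14 contrasts, each tested two-sided by the quasi-likelihood F test, with Benjamini-Hochberg adjustment over all genes tested. The SE was computed as the size of the log2 fold change over the root of F.

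The members and lists were chosen with earlier results of these data known. Every member is named. Values in every library are given for the 4 members with the largest and the 2 with the smallest mean log2 fold change over the 5 treatments, by its absolute value, in each compartment, and for GARS, KARS, QARS, HARS, HARS2, AIMP1 and AIMP2. Related lists name ATF4, EEF1E1 and the extremes by mean, and 1 result is not reported here. Replicate numbers equal the batch numbers of the labels and so pair the samples: deviations from group means correlated by 0.12 on average in 60 same-numbered library pairs (47 positive) and by -0.04 in 180 others. Of 36 replicate pairs within groups 0 were identical. Alternatives were DESeq2 1.42.0, relative log expression size factors, no filter, only the groups compared, the replicate block, and leaving out each library. Exon overlaps came from GENCODE 29 and promoter windows from RefSeq. The fit was tested on simulated counts.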

Additional observations from a re-analysis of the deposited data

Results flagged for a closer look

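In 240 groups of 4 libraries, 6 for each of the 38 members and for the cytosolic and the mitochondrial sum, 16 (6.67%) held a library whose gap to the nearest of the other 3 as a share of the group's CPM range was over Dixon's 95% critical value. Chance alone gives such a gap in about 1 in 20 groups. PI103+PD0325901 replicate 4 held 103 CPM of AARS against 124 to 128 in the other 3. PI103+PD0325901 replicate 2 held 56.5 CPM of CARS against 46.8 to 47.2 in the other 3. PD0325901 replicate 2 held 31.3 CPM of FARSB against 43.5 to 45.9 and 19.9 CPM of WARS2 against 24.3 to 25.2 in the other 3. PI103+oxozeaenol replicate 2 held 245 CPM of GARS against 134 to 151 and 143 CPM of YARS against 83.6 to 87.2 in the other 3. Control replicate 3 held 347 CPM of NARS against 309.5 to 314 in the other 3. PI103 replicate 4 held 110.3 CPM of RARS against 132.9 to 133.1 in the other 3. Oxozeaenol replicate 4 held 95.3 CPM of RARS against 119 to 122 in the other 3. PI103 replicate 2 held 61.5 CPM of VARS against 45.3 to 47.1 and 45.3 CPM of EARS2 against 38.7 to 39.4 in the other 3. PI103+oxozeaenol replicate 4 held 28.4 CPM of AARS2 against 24.2 to 24.8, 17.2 CPM of FARS2 against 19.4 to 19.7 and 32.7 CPM of YARS2 against 38.4 to 38.6 in the other 3. PD0325901 replicate 4 held 40.7 CPM of LARS2 against 43.0 to 43.3 in the other 3. PI103 replicate 1 held 26.0 CPM of WARS2 against 22.4 to 22.5 in the other 3.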

How the results depend on the processing

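Of 140 calls of members against control, 123 were kept in every alternative and 17 were lost in at least 1, and no direction reversed. DESeq2, relative log expression size factors and the replicate block lost 0 of the 140, while fitting without a filter and fitting only the groups compared lost 4 each. The replicate block, paired by batch, gave 5 cytosolic and 2 mitochondrial calls for PI103+oxozeaenol against PI103 (3 and 1 without it) and 5 cytosolic calls against the mean of its agents (0), where DESeq2 gave 2. No other count of calls moved by over 1.5 times under it. With only the groups compared, counts were 3 for mitochondrial genes lower with oxozeaenol (5), 5 and 2 for PI103+oxozeaenol against PI103, 1 for mitochondrial genes in PI103+PD0325901 against PD0325901 (5), and 1 cytosolic and 2 mitochondrial for oxozeaenol against PD0325901 (3 and 5). Without the filter the last was 3. The cause of these shifts was not tested. Shares over all genes in the alternative fits are not given here, so whether calls over all genes moved alike is not shown. Leaving out a library in turn gave 3 to 6 mitochondrial genes lower with oxozeaenol and 4 to 7 with PI103+oxozeaenol. It gave 1 to 4 cytosolic calls for PI103+oxozeaenol against PI103, 0 to 1 mitochondrial against oxozeaenol, and 0 to 9 cytosolic against the mean. Mitochondrial calls of PI103+PD0325901 ranged from 3 to 9 against PI103, 2 to 4 against PD0325901 and 3 to 8 against the mean. For PI103 against PD0325901 mitochondrial calls were 2 to 5, and for oxozeaenol against PD0325901 there were 1 to 3 cytosolic and 2 to 4 mitochondrial calls. Summed levels on the log2 scale were sensitive to their definition. Without TMM scaling the mitochondrial differences were -0.021 with PI103, -0.035 with PD0325901 and -0.18 with PI103+PD0325901 (-0.09, -0.12 and -0.31 with it), and the cytosolic one with PI103+PD0325901 was -1.58 (-1.71). With the geometric mean over members it was -1.53, the cytosolic PI103 value -1.27 (-1.46), and the mitochondrial PI103 value -0.16. Small mitochondrial changes are thus within reach of the scaling.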
